A study of Mus musculus with 8 samples.

Results

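Adrenergic receptors carry the noradrenaline signal of sympathetic nerves into fat. The 8 genes described here are Adrb1 and Adrb3 (β receptors), Adra1a, Adra1b and Adra1d (α1 receptors) and Adra2a, Adra2b and Adra2c (α2 receptors). They were chosen by name, with earlier results of these data known, and each has 1 entry among the 44422 genes listed in the table. RNA-seq of poly(A) RNA covered brown adipose tissue (BAT) and inguinal white adipose tissue (iWAT) of 10-week-old male C57BL/6 mice housed at 22 °C. H1.2AKO mice carry floxed alleles of the linker histone H1.2 and a Cre driven by the adiponectin promoter, which is active in adipocytes and spares the other cells of the fat pad. WT mice are littermates with the same floxed alleles and no Cre. There were 2 libraries for each of BAT H1.2AKO, BAT WT, iWAT H1.2AKO and iWAT WT, 8 in all, each a pool of RNA from several mice, so n counts pools and p-values measure the spread between pools.

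In adipocytes, β receptors couple to the stimulatory G protein, raise cyclic AMP and activate protein kinase A, which drives lipolysis and, in brown and beige adipocytes, heat production. The α2 receptors couple to inhibitory G proteins and lower cyclic AMP, so they restrain lipolysis. The α1 receptors couple to Gq and phospholipase C and act through calcium and protein kinase C. Adrb3 is the β receptor for which rodent fat is best known.

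The values are fragments per kilobase of gene length, scaled to the library (FPKM), so levels of different genes in a library can be compared. Whole reads were recovered from them, 16118634 to 17480325 per library over the listed genes. H1.2 itself, listed as Hist1h1c, was at 0.177 and 1.97 FPKM in BAT H1.2AKO libraries against 36.8 and 43.3 FPKM in BAT WT libraries, and at 2.26 and 1.73 FPKM in iWAT H1.2AKO libraries against 23.7 and 24.2 FPKM in iWAT WT libraries. The tissue labels were checked with 6 brown adipocyte markers, whose summed level was 8182 to 10237 FPKM in BAT and 246 to 352 FPKM in iWAT. The summed level of 6 progenitor markers was 112 to 190 FPKM in BAT and 668 to 769 FPKM in iWAT, and that of 6 macrophage markers was 107 to 172 FPKM in BAT and 588 to 743 FPKM in iWAT. For 6 B cell markers it was 1.37 to 3.64 FPKM in BAT and 244 to 325 FPKM in iWAT. Their part in the differences between BAT and iWAT was not tested. The mean log2 level of 12 skeletal muscle markers set 2 libraries apart. It was 2.64 in BAT H1.2AKO replicate 1 and 3.06 in iWAT WT replicate 1, and 5.97 to 6.96 in the other 6.

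Adrb3 was the most abundant of the 8 genes in every library, followed in BAT by Adrb1 and Adra1d (Adrb1 second in 3 libraries, Adra1d in 1) and then Adra1a, and in iWAT by Adra1d. Averaged over 4 libraries, the order in BAT was Adrb3 (127 ± 35.8 FPKM, SD), Adra1d (15.5 ± 3.05), Adrb1 (15.2 ± 2.35), Adra1a (9.05 ± 2.08), Adra1b (0.138 ± 0.0583), Adra2c (0.131 ± 0.0219), Adra2a (0.0665 ± 0.0518) and Adra2b (0.0407 ± 0.0494). In that order the ranges of Adra1d and Adrb1 overlapped, as did those of each neighbouring pair from Adra1b down, and the other neighbours stood apart. In iWAT the order was Adrb3 (157 ± 23.0 FPKM), Adra1d (3.75 ± 0.600), Adra1b (0.984 ± 0.192), Adrb1 (0.871 ± 0.151), Adra1a (0.651 ± 0.204), Adra2a (0.629 ± 0.10), Adra2c (0.128 ± 0.0297) and Adra2b (0.0652 ± 0.0492). Adra1b, Adrb1, Adra1a and Adra2a overlapped neighbour by neighbour, and so did Adra2c and Adra2b.

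**Figure D1:**
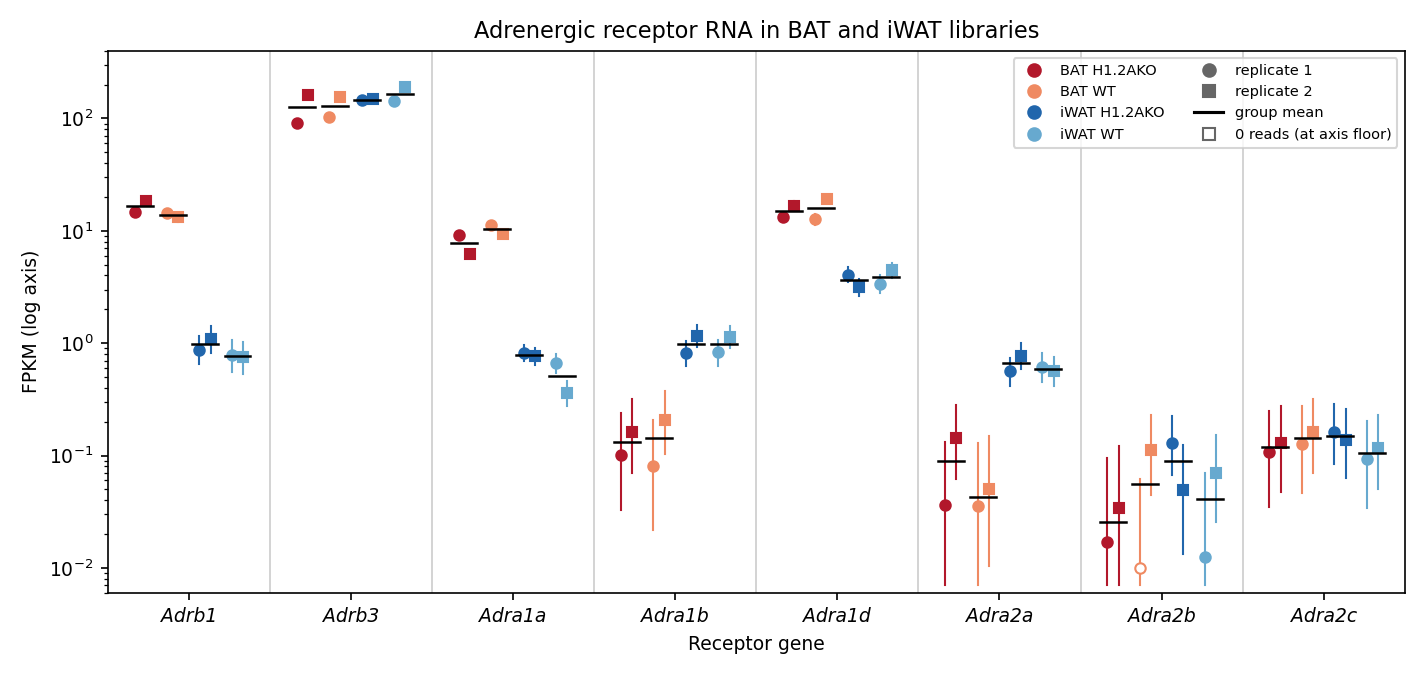
FPKM of each receptor gene (log axis) in each library, with BAT H1.2AKO, BAT WT, iWAT H1.2AKO and iWAT WT from left to right, circles for replicate 1, squares for replicate 2, bars for the 95% Poisson interval of the reads and black lines for group means. Adrb3 lies at 91.2 FPKM or above in all 8 libraries, Adrb1, Adra1a and Adra1d lie higher in BAT, and Adra1b and Adra2a lie higher in iWAT.

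Of the 8 genes, 5 were tested between the tissues, by limma on log2(FPKM + 0.5) over 14108 genes with a mean of at least 0.5 FPKM. Adrb1, Adra1a and Adra1d were higher in BAT and Adra1b was lower, at an adjusted p under 0.05. The background is large, since 65.7% of all tested genes passed, 31.7% higher and 34.0% lower in BAT. Values did not overlap between the tissues for 29.2% of tested genes on the higher and 31.7% on the lower side. Adra1b passed the filter on low values only through its level in iWAT. Adra2a, Adra2b and Adra2c had means under 0.5 FPKM and were not in that test. In bulk tissue, fewer cells of a type and less RNA per cell cannot be told apart.

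Promoter sequences from RefSeq (GRCm38.p6) matched 5 of the 8 genes. Those of Adrb1, higher in BAT, and of Adra2a and Adra1b, higher in iWAT, are shown because these genes stood apart between the tissues in opposite directions. Each is the 250 bases before a RefSeq start, in the direction of the gene, with Adrb1 at chr19:56721867-56722116 (+ strand), Adra2a at chr19:54045009-54045258 (+ strand) and Adra1b at chr11:43901238-43901487 and chr11:43836490-43836739 (− strand). Capitals mark matches on either strand to TGACG (the CRE half-site, for CREB proteins), TATAAA (the TATA box), CCAAT (the CCAAT box), GGGCGG (the GC box), CACGTG (the E-box) and AGGTCA (the nuclear receptor half-site).
Adrb1: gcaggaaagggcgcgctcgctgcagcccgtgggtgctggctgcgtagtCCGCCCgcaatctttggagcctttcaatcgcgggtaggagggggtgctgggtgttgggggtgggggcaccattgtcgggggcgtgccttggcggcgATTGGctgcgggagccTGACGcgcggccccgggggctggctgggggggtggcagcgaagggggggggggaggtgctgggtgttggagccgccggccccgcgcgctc
Adra2a: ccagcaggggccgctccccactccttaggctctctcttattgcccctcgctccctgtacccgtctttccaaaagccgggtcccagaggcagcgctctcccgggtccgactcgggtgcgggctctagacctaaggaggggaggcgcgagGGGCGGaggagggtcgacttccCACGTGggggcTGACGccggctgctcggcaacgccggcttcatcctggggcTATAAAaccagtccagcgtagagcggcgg
Adra1b upstream start: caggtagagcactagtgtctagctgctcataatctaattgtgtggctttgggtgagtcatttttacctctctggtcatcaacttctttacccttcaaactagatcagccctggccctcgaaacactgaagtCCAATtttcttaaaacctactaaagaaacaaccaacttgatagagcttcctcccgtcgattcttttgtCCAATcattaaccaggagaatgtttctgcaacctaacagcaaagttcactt
Adra1b downstream start: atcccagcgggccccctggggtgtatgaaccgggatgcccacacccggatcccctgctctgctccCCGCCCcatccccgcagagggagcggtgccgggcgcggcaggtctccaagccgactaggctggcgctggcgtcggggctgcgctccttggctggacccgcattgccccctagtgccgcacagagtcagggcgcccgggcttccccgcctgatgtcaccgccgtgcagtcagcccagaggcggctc
The Adrb1 window held a CRE half-site beginning at -90, a CCAAT box on the minus strand at -106 and a GC box on the minus strand at -202, counted from the RefSeq start as +1. The Adra2a window held a CRE half-site at -69, a TATA box at -29, an E-box at -80 and a GC box at -102. The RefSeq start of Adra2a, 54045259, lies downstream of the start listed with the FPKM values, 54045182. The end of this window, with the CRE half-site and the TATA box, thus lies inside the listed gene. The upstream Adra1b window held CCAAT boxes at -119 and -51, and the downstream one held a GC box on the minus strand at -185. No matches overlapped in these windows, and the full palindrome TGACGTCA, which contains the half-site, was in none of them. Of 32851 promoter windows of the same length, 17.8% held the CRE half-site, 12.4% the TATA box, 33.9% the CCAAT box, 32.7% the GC box, 6.02% the E-box, 14.0% the nuclear receptor half-site and 1.55% the full CRE palindrome. G and C made up 74.0% of the Adrb1 window, 67.6% of the Adra2a window and 41.6% and 72.8% of the Adra1b windows. These are matches of letters, and no binding was measured.

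Adrb1 (ENSMUSG00000035283; mm10, GRCm38.p6, chromosome 19, 56722372 to 56724862, + strand) encodes the β1 receptor, which has a high affinity for noradrenaline. It was at 14.7 and 18.6 FPKM in BAT H1.2AKO, 14.5 and 13.1 FPKM in BAT WT, 0.872 and 1.08 FPKM in iWAT H1.2AKO, and 0.782 and 0.747 FPKM in iWAT WT. Every BAT library lay above every iWAT library, with 510 to 679 reads in BAT and 39 to 55 reads in iWAT. The ratio of the tissue means was 17.5. On the log2(FPKM + 0.5) scale, which understates the change of low genes, the difference between BAT and iWAT was 3.52 (SE 0.10, adjusted p = 1.73e-06 by limma, n = 4 libraries per tissue). It was 3.53 in H1.2AKO mice and 3.50 in WT mice.

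Adrb3 (ENSMUSG00000031489, chromosome 8, 27225776 to 27229588, − strand) encodes the β3 receptor, which in rodents is found mainly in adipocytes. It was at 91.2 and 162 FPKM in BAT H1.2AKO, 102 and 154 FPKM in BAT WT, 145 and 149 FPKM in iWAT H1.2AKO, and 142 and 191 FPKM in iWAT WT. On the FPKM scale the tissues overlapped, and the 2 lowest libraries were the replicate 1 libraries of BAT. In unscaled reads they did not overlap, with 3830 to 6968 in BAT and 8224 to 11885 in iWAT, so the overlap rests on the library sizes behind the FPKM. Replicate 2 exceeded replicate 1 in all 4 groups, as it did for 7.46% of the tested genes. The difference between BAT and iWAT was -0.33 on the log2(FPKM + 0.5) scale (95% interval -0.86 to 0.19, adjusted p = 0.225 by limma). It was -0.54 without BAT H1.2AKO replicate 2 (adjusted p = 0.0461 by limma) and -0.87 with quantile normalization (adjusted p = 0.0110 by limma), and 4 of 22 fits with different settings called it lower in BAT. Among protein-coding genes, 22196 in all, Adrb3 ranked between 338 and 562 by FPKM in BAT and between 182 and 263 in iWAT. The mean log2 level of 6 adipocyte markers was 7.84 in BAT H1.2AKO replicate 1, the library lowest in Adrb3, and 7.91 to 8.08 in the other BAT libraries, and its part in the spread of Adrb3 was not tested.

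Adra1a (ENSMUSG00000045875, chromosome 14, 66635251 to 66733462, + strand) encodes the α1A receptor. It was at 9.17 and 6.27 FPKM in BAT H1.2AKO, 11.3 and 9.46 FPKM in BAT WT, 0.817 and 0.764 FPKM in iWAT H1.2AKO, and 0.662 and 0.360 FPKM in iWAT WT. All BAT libraries lay above all iWAT libraries, and the ratio of the means was 13.9. The log2 difference was 3.04 (SE 0.16, adjusted p = 9.41e-06 by limma), with 2.65 in H1.2AKO mice and 3.44 in WT mice.

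Adra1d (ENSMUSG00000027335, chromosome 2, 131545850 to 131562283, − strand) encodes the α1D receptor. It was at 13.4 and 16.7 FPKM in BAT H1.2AKO, 12.6 and 19.2 FPKM in BAT WT, 4.07 and 3.15 FPKM in iWAT H1.2AKO, and 3.36 and 4.43 FPKM in iWAT WT. The tissues did not overlap, the ratio of the means was 4.12, and the log2 difference was 1.90 (SE 0.17, adjusted p = 8.61e-05 by limma). Adra1d overlaps the antisense gene Gm14285, which averaged 1.04 FPKM with at most 11 reads in a library. No source states that the libraries keep strand, so reads of the pair cannot be told apart where they overlap.

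Adra1b (ENSMUSG00000050541, chromosome 11, 43774606 to 43901210, − strand) encodes the α1B receptor and went the other way from its family. It was at 0.102 and 0.161 FPKM in BAT H1.2AKO, 0.0801 and 0.209 FPKM in BAT WT, 0.810 and 1.16 FPKM in iWAT H1.2AKO, and 0.827 and 1.14 FPKM in iWAT WT. All BAT libraries lay below all iWAT libraries, on 4 to 11 reads in BAT and 56 to 83 reads in iWAT. The iWAT mean was 7.13 times the BAT mean. From the summed reads, the level in iWAT over that in BAT was 7.06 (95% exact binomial interval 4.78 to 10.8, counting error only). The log2 difference between BAT and iWAT was -1.21 (SE 0.15, adjusted p = 0.000480 by limma), in a test that Adra1b entered only through its level in iWAT.

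Adra2a (ENSMUSG00000033717, chromosome 19, 54045182 to 54048982, + strand) encodes the α2A receptor. It was at 0.0362 and 0.144 FPKM in BAT H1.2AKO, 0.0357 and 0.0506 FPKM in BAT WT, 0.560 and 0.774 FPKM in iWAT H1.2AKO, and 0.617 and 0.563 FPKM in iWAT WT. These rest on 2, 8, 2 and 3 reads in the BAT libraries and 46 to 60 reads in each iWAT library, and the tissues did not overlap. From the summed reads, 15 in BAT and 202 in iWAT, the level in iWAT over that in BAT was 9.44 (95% exact binomial interval 5.59 to 17.2). In the alternative fit with no filter on low values, the log2 difference between BAT and iWAT was -0.99 (adjusted p = 0.000462 by limma). The two-sided exact permutation test of 4 BAT against 4 iWAT libraries gave p = 0.0286, the smallest that this design allows. The same test also gave 0.0286 for Adrb1, Adra1a, Adra1b and Adra1d and 0.286 for Adrb3, and adjustment over all genes was not made for it.

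Adra2b and Adra2c encode the α2B and α2C receptors and were near the limit of detection. Adra2b (ENSMUSG00000058620, chromosome 2, 127363208 to 127367221, + strand) had 1 and 2 reads in BAT H1.2AKO, 0 and 7 in BAT WT, 12 and 4 in iWAT H1.2AKO, and 1 and 6 in iWAT WT. Adra2c (ENSMUSG00000045318, chromosome 5, 35278566 to 35281761, + strand) had 5 and 6 reads in BAT H1.2AKO, 6 and 8 in BAT WT, 12 and 9 in iWAT H1.2AKO, and 6 and 8 in iWAT WT. The tissues overlapped for both genes (exact permutation p = 0.486 for Adra2b and 0.829 for Adra2c). The level in BAT over that in iWAT was 0.620 (95% exact binomial interval 0.264 to 1.36) for Adra2b and 1.02 (0.585 to 1.75) for Adra2c, so a difference of the size seen for Adra2a lay outside both intervals as far as counting error goes.

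**Figure D2:**
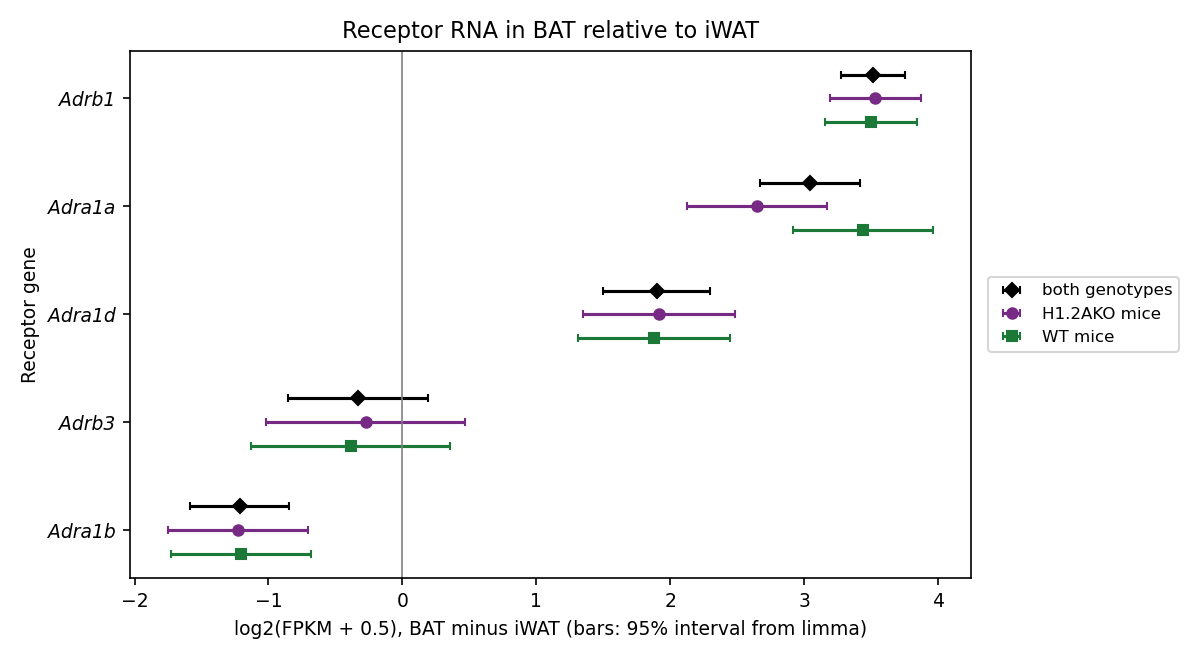
Difference in log2(FPKM + 0.5) between BAT and iWAT for the 5 receptor genes tested, over both genotypes (diamonds), in H1.2AKO mice (circles) and in WT mice (squares), with 95% intervals from limma. Adrb1, Adra1a and Adra1d lie at 3.52, 3.04 and 1.90 over both genotypes, the intervals of Adrb3 include 0, and Adra1b lies at -1.21.

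The makeup of receptor RNA differed between the tissues. Adrb3 made up 70.8% and 79.4% of the summed FPKM of the 8 genes in BAT H1.2AKO, 72.6% and 78.5% in BAT WT, 95.1% and 95.4% in iWAT H1.2AKO, and 95.7% and 96.3% in iWAT WT. The 8 genes together reached 129 to 204 FPKM in BAT and 148 to 198 FPKM in iWAT, which overlap. The 7 genes other than Adrb3 summed to 37.5 to 42.3 FPKM in BAT and 6.36 to 7.43 FPKM in iWAT, with no overlap. Within these 7, Adrb1 took 31.0% to 44.3% in BAT and 10.1% to 15.2% in iWAT. Adra1a took 14.9% to 29.2% in BAT and 4.84% to 11.0% in iWAT, and Adra1d took 32.7% to 45.4% in BAT and 44.3% to 59.7% in iWAT. Adra2a took 0.0922% to 0.342% in BAT and 7.55% to 10.9% in iWAT.

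**Figure D3:**
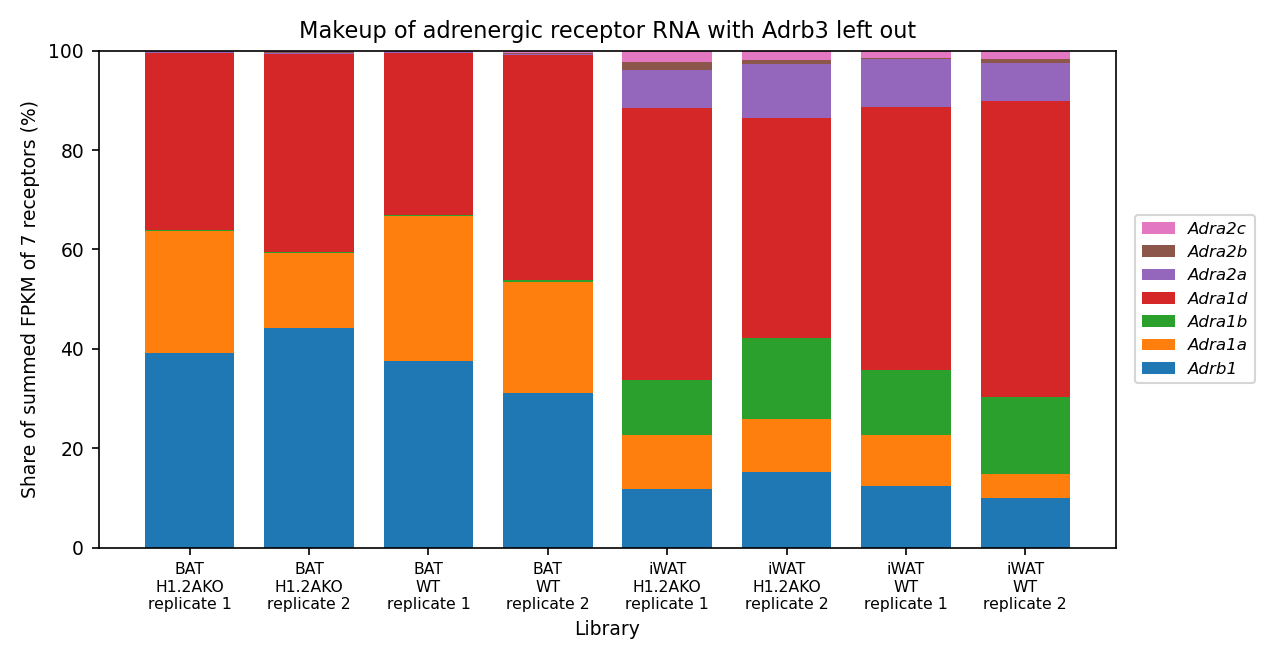
Share (%) of each of the 7 receptor genes other than Adrb3 in their summed FPKM, 1 stacked bar per library, with BAT left and iWAT right and H1.2AKO left of WT within each tissue. Adrb1 takes 31.0% to 44.3% in BAT and 10.1% to 15.2% in iWAT, and Adra1b and Adra2a are visible only in iWAT.

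A ratio of 2 genes within a library depends on how the library was scaled only through the pseudocount. The log2 ratio of Adrb3 to Adrb1 (each as FPKM + 0.5) averaged 2.99 ± 0.40 in BAT and 6.84 ± 0.30 in iWAT (SD, n = 4 libraries each), a difference of -3.85 (exact permutation p = 0.0286). The ratio of Adra1a to Adrb3 averaged -3.73 ± 0.68 in BAT and -7.10 ± 0.47 in iWAT, a difference of 3.38 (exact permutation p = 0.0286). Adrb3 relative to Adra2a, a receptor that activates the pathway set against one that restrains it, averaged 7.78 ± 0.33 in BAT and 7.12 ± 0.27 in iWAT. That difference, 0.66, had an exact permutation p of 0.0571, and with a pseudocount of 0.1 it was 1.83 (exact permutation p = 0.0286). Adra2a relative to Adra2b averaged 0.07 ± 0.17 in BAT and 1.00 ± 0.21 in iWAT, a difference of -0.93 (exact permutation p = 0.0286), and from reads per kilobase it was -2.46 (exact permutation p = 0.0571). Adra2b had 0 to 7 reads in BAT.

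Between H1.2AKO and WT mice, none of the tested receptor genes passed the threshold in either tissue. The same held for every gene, since limma called 0 of 13190 genes in BAT (0.0%) and 0 of 14349 in iWAT (0.0%) with adjusted values under 0.05. That includes Hist1h1c, the deleted gene, in spite of its low level in the H1.2AKO libraries given above. The fit thus missed a known loss, and a gene that it did not call may still differ. Unadjusted values under 0.05 were reached by 1631 genes (12.4%) in BAT and 863 (6.01%) in iWAT, and limma-voom on the recovered reads called 3 genes in BAT (0.0227%) and 5 in iWAT (0.0348%). In BAT, 4 receptor genes were tested and 0 had an unadjusted p under 0.05, and in iWAT this was 0 of 6.

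Adrb1 was higher in both H1.2AKO libraries than in both WT libraries in each tissue. The log2 difference was 0.25 in BAT (95% interval -0.09 to 0.59, adjusted p = 0.516 by limma) and 0.22 in iWAT (-0.12 to 0.56, adjusted p = 0.944 by limma), with the values given above. Of the tested genes, 22.4% in BAT and 16.7% in iWAT were higher with no overlap, and 5.34% of 12594 genes tested in both tissues were so in both. With 2 libraries against 2, the smallest exact permutation p is 0.333.

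Adra1a ran in opposite directions in the tissues. In BAT both H1.2AKO libraries, at 9.17 and 6.27 FPKM, lay below both WT libraries, at 11.3 and 9.46 FPKM, a log2 difference of -0.42 (95% interval -0.95 to 0.10, adjusted p = 0.489 by limma). In iWAT both H1.2AKO libraries, at 0.817 and 0.764 FPKM, lay above both WT libraries, at 0.662 and 0.360 FPKM, a log2 difference of 0.37 (-0.16 to 0.90, adjusted p = 0.925 by limma). In BAT 18.9% of tested genes were lower with no overlap. Of the 12594 genes tested in both tissues, 1.86% were higher in iWAT and lower in BAT with no overlap in either. The difference between the 2 genotype differences was -0.79 (SE 0.31, unadjusted p = 0.0407, adjusted p = 0.850 by limma over 14945 genes), and 5.61% of those genes had an unadjusted p under 0.05.

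For the other members, except Adra2c in iWAT, the genotypes overlapped. The log2 difference of Adrb3 was -0.05 in BAT (95% interval -0.79 to 0.69) and -0.16 in iWAT (-0.91 to 0.58). That of Adra1d was -0.06 in BAT (-0.63 to 0.51) and -0.10 in iWAT (-0.66 to 0.47). In iWAT, Adra1b differed by -0.0011 (-0.50 to 0.49) and Adra2a by 0.09 (-0.34 to 0.52). The width of these intervals means that the data do not show the levels to be alike. Adra1b and Adra2a in BAT, and Adra2b and Adra2c in either tissue, were below the filter. Adra2c in iWAT, with 12 and 9 reads in H1.2AKO and 6 and 8 reads in WT, was the 1 gene among these whose groups did not overlap. In iWAT 16.7% of all tested genes were higher in H1.2AKO with no overlap.

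**Figure D4:**
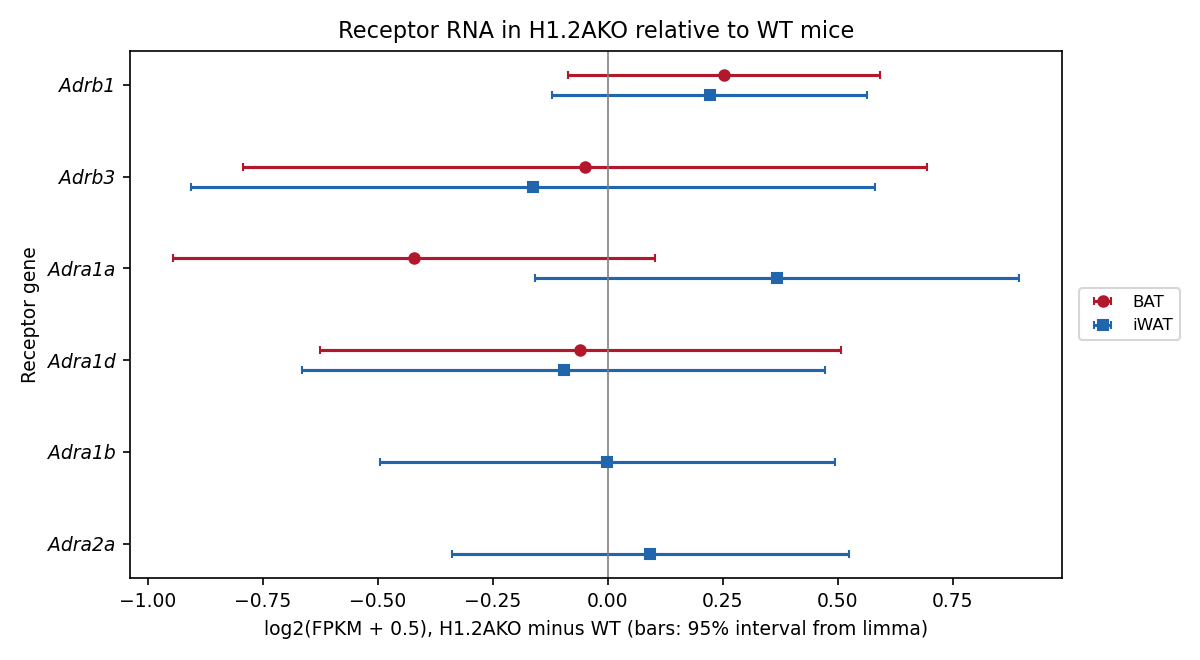
Difference in log2(FPKM + 0.5) between H1.2AKO and WT mice for the receptor genes tested, in BAT (circles) and iWAT (squares), with 95% intervals from limma; Adra1b and Adra2a were tested in iWAT only. Every interval includes 0, with Adra1a at -0.42 in BAT and 0.37 in iWAT.

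Around the receptors, 10 lists with 101 genes follow the signal from transmitter handling to lipolysis. Counts are read against the 31.7% of all tested genes called higher and the 34.0% called lower in BAT. Of the 68 list genes called, 7 had a mean under 0.5 FPKM in 1 tissue and so passed the filter only through the other, among them Dio2, Gnao1 and Prkcb. Of the 12 cyclic AMP and thermogenic target genes, 9 were higher and 0 lower at the threshold, with a median log2 difference of 2.20 against -0.02 over all tested genes. Ucp1, Cidea and Elovl3 of this list were also brown adipocyte markers in the check of the tissue labels. Their direction was thus known beforehand, and the count does not test the list. Ucp1, the uncoupling protein that makes heat, was at 2856 and 2603 FPKM in BAT H1.2AKO, 2801 and 2490 FPKM in BAT WT, 3.41 and 2.33 FPKM in iWAT H1.2AKO, and 0.547 and 2.01 FPKM in iWAT WT. Dio2, the deiodinase that activates thyroid hormone, differed by 5.10, Ppargc1a, a coactivator of mitochondrial genes, by 2.82 on the log2 scale, and Pck1, an enzyme of glyceroneogenesis, was 2.77-fold higher by its means. Of 8 lipolysis effectors, 6 were higher and 0 lower. By the ratio of the means, Aqp7, a glycerol channel, was 3.01-fold higher in BAT, Pnpla2, the first lipase of triglyceride breakdown, 2.10-fold, and Abhd5, the activator of Pnpla2, 1.34-fold.

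Of 8 tested adenylyl cyclases, which make cyclic AMP, 4 were higher in BAT and 2 lower, near the share over all tested genes (65.7% called in either direction). Adcy3 was at 21.5 to 34.4 FPKM in BAT and 3.04 to 3.69 FPKM in iWAT, and Adcy6 at 53.5 to 72.5 and 24.9 to 26.6 FPKM. Adcy9 was 2.06-fold higher in BAT by its means. Of 9 tested phosphodiesterases, which break down cyclic AMP, 7 were higher in BAT and 1 lower. Pde4a (6.55-fold) and Pde4d (6.03-fold) led these, Pde3b, which insulin signalling activates to curb lipolysis, was 1.23-fold higher, and Pde7a was the exception, with an iWAT mean 3.41 times that of BAT. Among 8 genes of protein kinase A and its anchors, 4 were higher and 0 lower, led by Akap1, a mitochondrial anchor (7.02-fold), and Prkar2b, the regulatory subunit typical of fat (2.69-fold). Prkar2a, another regulatory subunit, differed by 0.13 (adjusted p = 0.131 by limma).

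Among G proteins, desensitizing proteins and the Gq branch, genes were called in both directions, as over all tested genes (31.7% higher and 34.0% lower). Of 7 tested Gα subunits 3 were higher and 3 lower in BAT. Gnas, the stimulatory subunit, was among the higher, with a mean of 4.33 FPKM in BAT and 0.383 FPKM in iWAT. Like Gnao1, it passed the filter only through BAT. The part of overlapping entries in its listed level was not tested. Gnao1, of the inhibitory class, was at 4.13 to 4.96 FPKM in BAT and 0.316 to 0.377 FPKM in iWAT, while Gnai2, also inhibitory, was at 36.1 to 39.0 and 61.5 to 66.1 FPKM. Gnaq, the Gq subunit used by α1 receptors, differed by -0.16 (adjusted p = 0.206 by limma). Of 10 tested receptor kinases, arrestins and RGS proteins, 5 were higher and 5 lower. Adrbk2, a receptor kinase also named Grk3, was 4.42-fold higher in BAT, and the iWAT means of Grk6, another receptor kinase, and Rgs16, which speeds the turn-off of Gα subunits, were 2.70 and 2.55 times those of BAT. Of 11 genes of the phospholipase C and protein kinase C branch 4 were higher and 6 lower, with a median of -1.10. The inositol trisphosphate receptors Itpr2 and Itpr1 were 5.04-fold and 2.09-fold higher in BAT. The protein kinase C genes Prkca and Prkcb were 2.65-fold and 27.6-fold higher in iWAT. B cell markers, at 1.37 to 3.64 FPKM summed in BAT and 244 to 325 FPKM in iWAT, moved with Prkcb, which B cells express, and their part was not tested.

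Of 11 tested other receptors that act on adipocyte cyclic AMP, 3 were higher and 4 lower in BAT, near the shares over all tested genes (31.7% and 34.0%). Tshr, the thyrotropin receptor, averaged 2.60 ± 1.16 FPKM in BAT and 13.3 ± 4.76 FPKM in iWAT (SD, n = 4 libraries each), and S1pr1, a receptor for sphingosine 1-phosphate, was 1.57-fold higher in BAT. For catecholamine handling 5 of 10 genes were tested and 2 were higher in BAT, among them the breakdown enzyme Maob (1.87-fold). Th and Dbh, which make noradrenaline in nerves, were at 0 to 0.0866 FPKM and 0 to 0.0323 FPKM over the 8 libraries and were not tested.

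**Figure D5:**
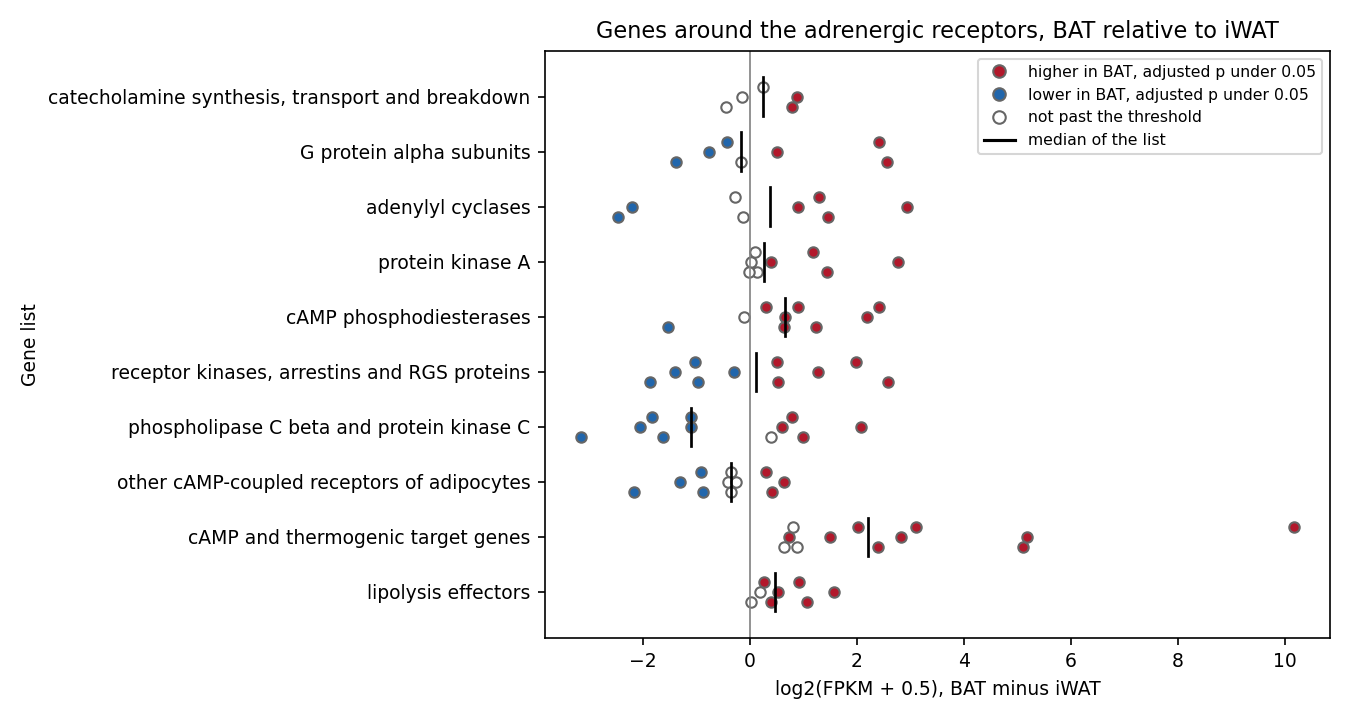
Difference in log2(FPKM + 0.5) between BAT and iWAT for the tested genes of 10 lists, 1 point per gene, filled red (higher in BAT) or blue (lower in BAT) where the adjusted p from limma is under 0.05, with a black line at the median of each list. The cyclic AMP and thermogenic targets have a median of 2.20, and the phospholipase C and protein kinase C list has a median of -1.10.

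Between the genotypes 0 genes of the 10 lists passed the threshold in either tissue. Genes of a list were measured in the same libraries, so the counts below are not independent and do not test a list. In BAT, all 9 tested phosphodiesterases had a negative log2 difference (median -0.29, with 0.01 over all tested genes), and 5 had an unadjusted p under 0.05, against 6.21% of all tested genes on the lower side. Leaving out BAT WT replicate 2 left 8 of 9 negative. Pde7a was at 1.61 and 1.21 FPKM in H1.2AKO and 1.92 and 2.20 FPKM in WT, a log2 difference of -0.43 (adjusted p = 0.302 by limma). Of 8 adenylyl cyclases 7 were negative (median -0.34), 4 of them at an unadjusted p under 0.05. Adcy3 was at 27.9 and 21.5 FPKM in H1.2AKO and 34.4 and 33.3 FPKM in WT (log2 difference -0.46, adjusted p = 0.283 by limma). Of the receptor kinases, arrestins and RGS proteins, Grk6 alone had an unadjusted p under 0.05, against 6.16% of tested genes on the higher side. All 10 were positive (median 0.17). Of these, 8 were positive without BAT WT replicate 1 (median 0.27), 9 without BAT WT replicate 2, 9 without BAT H1.2AKO replicate 2 and 9 when rescaled without mitochondrially encoded genes (median 0.11), and the median was 0.27 without BAT H1.2AKO replicate 1. Dio2 was at 17.6 and 10.9 FPKM in BAT H1.2AKO and 32.3 and 28.8 FPKM in BAT WT (log2 difference -1.11, adjusted p = 0.185 by limma). The skeletal muscle level was 2.64 and 5.97 in these H1.2AKO libraries and 6.79 and 6.96 in these WT libraries, and 9 of 9 phosphodiesterases and 7 of 8 cyclases were negative without H1.2AKO replicate 1. In the fit that adjusts for the muscle level, 9 of 9 phosphodiesterases and 6 of 8 cyclases were negative. For the cyclases it was also 6 of 8 with quantile normalization and without BAT WT replicate 2, and their median was -0.22 without BAT H1.2AKO replicate 2.

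In iWAT the medians were 0.13 for phosphodiesterases and 0.033 for adenylyl cyclases, with no settled sign. For phosphodiesterases the median was 0.0518 without iWAT H1.2AKO replicate 1, 0.0987 without iWAT H1.2AKO replicate 2, 0.0173 without iWAT WT replicate 1, -0.0125 without iWAT WT replicate 2 and -0.0159 with the muscle covariate. For cyclases it was -0.0496 without iWAT H1.2AKO replicate 1, 0.0218 without iWAT H1.2AKO replicate 2, -0.0310 without iWAT WT replicate 1 and 0.0849 without iWAT WT replicate 2. Among the genes with the smallest p of their list, Pde3b, Pck1, Pnpla2, Prkar2b, Hcar1 and Gnai2 had negative and Rgs16, Prkca and Adcy9 positive log2 differences. Rgs16 was at 2.62 and 3.33 FPKM in H1.2AKO and 2.05 and 2.29 FPKM in WT (0.38, adjusted p = 0.832 by limma). Prkca was at 3.24 and 3.45 FPKM in H1.2AKO and 2.78 and 2.49 FPKM in WT (0.30, adjusted p = 0.865 by limma), and Adcy9 differed by 0.21 (adjusted p = 0.966 by limma). Pde3b was at 31.7 and 28.6 FPKM in H1.2AKO and 40.0 and 40.4 FPKM in WT (log2 difference -0.41, adjusted p = 0.538 by limma). Pnpla2 was at 433 and 404 FPKM in H1.2AKO and 590 and 552 FPKM in WT (-0.45, adjusted p = 0.666 by limma). Hcar1, a lactate receptor that restrains lipolysis, was at 7.24 and 8.48 FPKM in iWAT H1.2AKO against 14.0 and 19.7 FPKM in iWAT WT, and at 6.98 and 7.39 FPKM in BAT H1.2AKO against 10.6 and 14.97 FPKM in BAT WT. Its log2 difference was -0.77 in BAT (adjusted p = 0.259 by limma) and -1.04 in iWAT (adjusted p = 0.508 by limma).

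Candidates for a similar pattern were protein-coding genes with a mean of at least 1 FPKM. Their log2 range had to be at least 0.5 times that of the receptor gene, and genes of 1 chromosome were left out. For each receptor gene with a mean of at least 0.5 FPKM, the 3 candidates with the most similar pattern over the 8 libraries were taken. The measure was the root mean square difference of their centred log2(FPKM + 0.5) values. For Adrb1 these were Letmd1 (0.14), Sucla2 and Cpt1b, for Adra1a Kcnk3 (0.17), Clstn3 and Adcy3, and for Adra1d Tpd52l1 (0.17), Tusc3 and Dnajc28. For Adra1b they were Dsel (0.07), Adm and Cercam, and for Adrb3 Nceh1 (0.11), Phldb2 and Zfp760. The pseudocount flattens values under 0.5 FPKM, such as Adra1b in BAT (0.0801 to 0.209 FPKM) and Cpt1b in iWAT. Likeness on this scale is thus not likeness of fold. Dsel was at 0.517 to 0.781 FPKM in BAT and 2.01 to 2.69 FPKM in iWAT, a smaller fold than that of Adra1b. Between 1606 and 7741 genes were compared for each receptor gene. Nceh1 was at 0.826 and 1.68 FPKM in BAT H1.2AKO and 1.16 and 1.49 FPKM in BAT WT. In iWAT it was at 1.73 and 1.69 FPKM in H1.2AKO and 1.49 and 1.99 FPKM in WT. Its lowest library, BAT H1.2AKO replicate 1, was also that of Adrb3. Nceh1 was chosen for its likeness to Adrb3 over these libraries, so this is not independent of the choice. Cpt1b was at 6.98 to 8.93 FPKM in BAT and 0.138 to 0.218 FPKM in iWAT.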

How the data were processed

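Poly(A) RNA-seq covered BAT and iWAT of H1.2AKO and WT mice, 2 libraries per tissue and genotype. The deposit notes give 3 mice per pool and the methods of the study another number. The authors deposited FPKM values per gene. Their processing notes name HISAT2 2.0.5, mm10 and GRCm38.p6. For the counter and the FPKM tool, the sources used here give no name. The values were whole multiples of 1 read (100% within 0.01 reads in each library), and the recovered reads gave exact intervals at the 95% level, which cover counting error only. BAT had 31.4% to 34.3% and iWAT 11.1% to 13.5% of its FPKM from mitochondrially encoded genes. The library sizes behind the FPKM were 0.873 to 0.955 times the listed reads in BAT and 1.23 to 1.33 times in iWAT. The sources used here do not say how they were set. The ratios from summed reads and limma-voom used the same sizes. Median-ratio scaling over the 8 libraries, which does not depend on them, moved the FPKM by factors of 0.980 to 1.02.

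Values were tested as log2(FPKM + 0.5) with limma 3.58.1 (R 4.3.3), trended moderation and 1 mean per tissue and genotype over 8 libraries. Genes needed a mean of at least 0.5 FPKM over the libraries compared, and Benjamini-Hochberg adjustment ran over all of them at 0.05. Exact tests used scipy 1.17.1. The fit was tested on simulated data. Alternatives changed the pseudocount (0.1, 1), filter, scaling, gene set, moderation, replicate block and libraries, used limma-voom on reads, and added the skeletal muscle level as a covariate. A crossed block in iWAT was added after the data were examined. Each block was a term within a tissue, so BAT was not paired with iWAT. The sources used here do not say whether BAT and iWAT pools came from the same mice. All tests between the tissues treat the libraries as independent.

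The receptor genes and lists were chosen with earlier results of these data known. Named pathway genes are the 2 with the smallest p between tissues and the 1 with the smallest p between genotypes in each tissue per list, plus Ucp1, Dio2 and Ppargc1a. Th and Dbh were chosen after their values were seen, and 1 gene that the rule names is not reported here. All 101 pathway genes were found, 2 under older symbols (Adrbk1 and Adrbk2). Promoters came from RefSeq.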

Additional observations from a re-analysis of the deposited data

Results flagged for a closer look

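The difference between H1.2AKO and WT mice in Adra1a, the α1A receptor, had opposite signs in BAT and iWAT. In the test of that difference itself (BAT minus iWAT) it was -0.79 on the log2(FPKM + 0.5) scale, with an unadjusted p = 0.0407 and an adjusted p = 0.850 by limma. Of 14945 genes, 5.61% had an unadjusted p under 0.05 by limma in that test. Among 12594 genes tested in both tissues, 1.86% had H1.2AKO below WT in BAT and above WT in iWAT with no overlap. The Adra1a difference was of this kind, on 2 libraries against 2 in each tissue. Over the alternatives its adjusted p ranged from 0.634 to 1.00.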

How the results depend on the processing

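The tissue calls of Adrb1, Adra1a, Adra1d and Adra1b kept their direction and an adjusted p under 0.05 by limma in every alternative that tested them, 22 fits with the one reported (21 for Adra1b, which a filter at 1 FPKM removed). The log2 difference of Adra1b ranged from -2.80 to -0.80. Adra1b passed the filter only through its level in iWAT, so its call is not on a par with the others. Rescaling without mitochondrially encoded genes moved the median of all genes by -0.25 between BAT and iWAT, and quantile normalization moved it by 0.11. Adrb3 kept its sign over both genotypes and passed with quantile normalization, without BAT H1.2AKO replicate 2 and with both blocks below. In WT mice it passed with quantile normalization (-0.91, adjusted p = 0.0432 by limma) and with the skeletal muscle covariate (-0.74, adjusted p = 0.0415 by limma).

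The labels share replicate numbers without saying what they mark, and the replicate differences of the genotypes correlated at 0.08 in BAT and -0.13 in iWAT over genes. With the replicate number as a block the log2 difference of Adrb3 between the tissues stayed at -0.33 (adjusted p = 0.0363 by limma), 8820 genes were called between the tissues, and 0 were called between the genotypes in either tissue. A crossed pairing in iWAT, chosen after seeing the data, called 9301 genes between the tissues, Adrb3 among them (adjusted p = 0.0381 by limma), and 0 between the genotypes.

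In H1.2AKO mice, the difference of Adrb3 between BAT and iWAT was 0.0596 with the skeletal muscle covariate and -0.69 to 0.14 with 1 library left out. The difference between H1.2AKO and WT in BAT was 0.41 for Adrb3 and 0.20 for Adra1d with the covariate. With 1 library left out it ranged from -0.46 to 0.36 for Adrb3 and from -0.35 to 0.23 for Adra1d in BAT. In iWAT it ranged from -0.38 to 0.0512 for Adrb3, -0.17 to 0.17 for Adra1b, -0.27 to 0.0802 for Adra1d and -0.039 to 0.23 for Adra2a. Adra1b in iWAT was 0.0028 with median-ratio scaling and 0.0162 without mitochondrially encoded genes. All of these missed the threshold, and the causes were not tested.

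Genes called between H1.2AKO and WT in iWAT numbered 11 with no filter on low values, 5 with limma-voom and 4 to 10 with 1 library left out. In BAT they numbered 6 and 2 with pseudocounts of 0.1 and 1, 1 with no filter, 1 with a mean of at least 1 FPKM, 4 among protein-coding genes, 3 with limma-voom, 1 with the muscle covariate, 1 with robust moderation and 0 to 17 with 1 library left out. For the difference between the tissues they numbered 3 with a pseudocount of 0.1, 5 with no filter and 0 to 2 with 1 library left out. No receptor gene was among these. The ratio of Adrb3 to Adra2a between BAT and iWAT was 1.83 with a pseudocount of 0.1 and 2.94 from reads per kilobase, and that of Adra2a to Adra2b was -2.46 from reads per kilobase (exact permutation p = 0.0571).

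Depth limits Adra1b and Adra2a in BAT and Adra2b and Adra2c in both tissues, at 0 to 12 reads per library. Fits with 1 library left out take the spread of the remaining single library from the other groups.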
